A study of Mus musculus with 9 samples.

Results

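The genes described here make, cut, bind and anchor hyaluronan in cultured mouse chondrocytes. They are the synthases Has1, Has2 and Has3, the hyaluronidases Hyal1 and Hyal2, the receptor Cd44 and the hyaluronan-binding protein Tnfaip6 (TSG-6). These 7 genes were chosen by name from 18295 genes with a testable probe, and each had 1 probe on the array.

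Chondrocytes were freed by collagenase from knee articular cartilage of newborn Kunming mice and grown as a monolayer, then cultured as 3 groups of 3 samples. The soft ECM was a polyacrylamide gel with a Young's modulus of 500 Pa and the stiff ECM one of 100 kPa, both coated with type I collagen. The third group was labelled normal, and what its cells grew on is not stated in the sources. The labels give 24 h of culture for every sample, while a legend of the study gives a longer time. Cultures were bulk, so fewer cells of a type and less RNA per cell cannot be told apart. No source states whether the 3 samples of a group were independent cultures or animals. The p-values therefore measure only the spread between these samples, which may be technical.

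Hyaluronan is a very long, unsulfated sugar chain made at the plasma membrane, where a synthase adds UDP-glucuronic acid and UDP-N-acetylglucosamine in turn and pushes the chain out of the cell. In cartilage it is the thread on which aggrecan and link protein assemble, and CD44 holds this coat on the chondrocyte surface and takes part in its uptake. Hyaluronidases cut the chain, HYAL2 at the cell surface and HYAL1 in the lysosome, and TSG-6 moves heavy chains of inter-alpha-inhibitor onto it. The comparison asked how the RNA of this machinery differed between gels that differ in stiffness.

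Values are deposited intensities on a linear scale, in arbitrary units, and each sample is the average of 2 arrays. A log2 fold change is the difference of the mean log2 intensities of 2 groups, tested with limma and adjusted by the Benjamini-Hochberg method over all 24942 tested probes. A probe passed at an adjusted p under 0.05. The 567 probes for olfactory receptors, genes not expected to be expressed in cartilage, served as a gauge of dim signal. Their level moved with the groups, with medians per sample of 10.3 to 34.8 in normal, 18.3 to 28.4 in soft ECM and 36.4 to 41.5 in stiff ECM. The median of all probes ran from 124 to 179.4 in normal, from 137 to 150 in soft ECM and from 166 to 175 in stiff ECM. Over all tested probes the log2 fold change therefore had a median of 0.18 for stiff against soft, 0.09 for stiff against normal and -0.09 for soft against normal, and each difference below should be read against these values. Of the cell type markers, 9 of 18 chondrocyte genes were above the 95th percentile of the olfactory means, among them Col2a1, Acan, Sox9 and Comp, while Matn1, Cnmd and Snorc were not. The chondrocyte genes summed to 17300 to 19010 in normal, 8940 to 10200 in soft ECM and 9830 to 10990 in stiff ECM. These sums follow mainly Col2a1, the brightest of them, with means of 9673, 3612 and 3889. On soft ECM against normal 2 of 18 passed as lower (Col2a1 and Col11a1), beside 3.21% of all probes. On stiff ECM against normal 3 did (Col2a1, Col9a1 and Col11a1), beside 5.14%. None passed as higher, and 5 and 6 of the 18 lay above 0. Sox9 was at -0.13 and -0.14. Skeletal muscle genes, 14 of 15 above the same olfactory percentile, summed to 157500 to 185700, 141100 to 162000 and 88390 to 110800. On stiff ECM against normal all 15 had a log2 fold change below 0. Of them 12 passed, beside 5.14% of all probes that passed as lower. The 13 macrophage genes tested summed to 9349 to 11650, 8890 to 9722 and 10680 to 11190, with 7 of the 13 above the olfactory level (among them Cd68, Lyz1, Cd14, Csf1r and Itgam) and Ptprc, C1qa and Fcgr1 below it. Lyz1 and Itgam rose on stiff against soft ECM, by 1.04 (adjusted p = 0.024 by limma) and 0.65 (adjusted p = 0.029) on the log2 scale. They also passed on stiff ECM against normal. In these 2 comparisons Cd44 was at 0.37 and 0.07. Other macrophage genes differed, with Cd68 at 0.003 and -0.39, Csf1r at 0.22 and -0.12, and Cd14 at -0.21 and 0.05. Of the 13, 10 lay above 0 and 3 below in the first comparison, and 7 and 6 in the second. The shares of all probes above 0 were 70.6% and 57.7%. The 11 synovial lining and fibroblast genes summed to 111600 to 143000, 113300 to 124400 and 107300 to 118000. Pdpn, the largest part of these sums, averaged 42170, 46940 and 45700. Of the 11, 4 passed as lower on stiff ECM against normal (Col1a2, Col3a1, Thy1 and Prg4), beside 5.14% of all probes. On soft ECM against normal 3 passed as lower (Col1a2, Col3a1 and Thy1), beside 3.21%. On stiff against soft ECM 1 did (Prg4, at -1.01), beside 0.417%. None passed as higher, and in these 3 comparisons 4, 4 and 3 of the 11 lay above 0. The 9 endothelial genes summed to 1225 to 1734, 1351 to 1414 and 1631 to 1795, and only Stab1 of them was above the olfactory level. The part of these cells in the results below was not tested.

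None of the 7 genes passed the adjusted test in any of the 3 comparisons. In stiff against soft 0 of 7 passed, where 1.77% of all tested probes did. In stiff against normal 0 of 7 passed beside 9.94% of probes, and in soft against normal 0 of 7 beside 3.7%. At an unadjusted p under 0.05 limma gave 2 of 7 (Cd44 and Has2) in stiff against soft, 1 of 7 (Tnfaip6) in stiff against normal and 1 of 7 (Cd44) in soft against normal. The shares of all probes at that level were 21.6%, 30% and 19.9%. The methods' t-test on the same log2 values also gave 0 of 7 after adjustment in each comparison, and before adjustment it gave Cd44 on soft ECM against either other group and no gene in stiff against normal. The lowest adjusted p of the 21 tests was 0.079, for Tnfaip6 on stiff ECM against normal. The members' log2 fold changes lay above 0 for 4 of 7 genes in stiff against soft, 3 of 7 in stiff against normal and 1 of 7 in soft against normal. The corresponding shares of all probes were 70.6%, 57.7% and 38.3%. The members' median log2 fold changes were 0.08, -0.04 and -0.24.

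**Figure D1:**
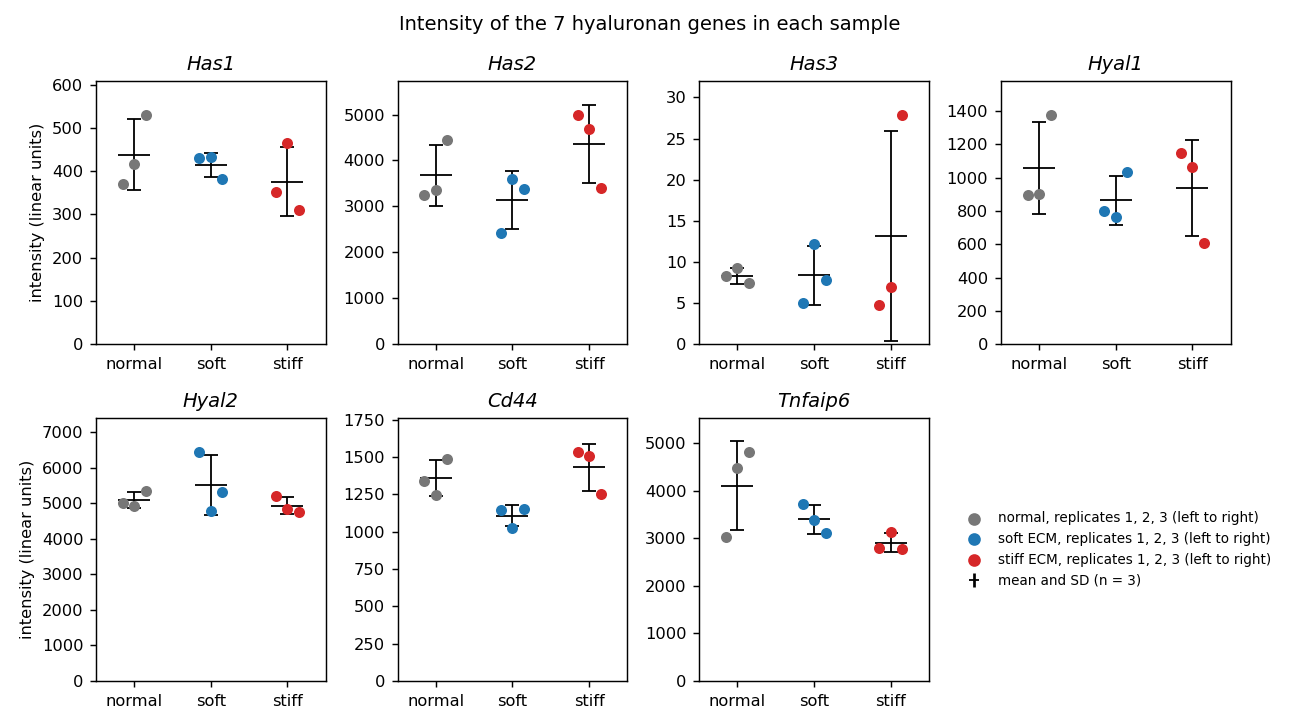
Deposited intensity, in linear units with an axis of its own for each gene, of the 7 hyaluronan genes in 3 normal, 3 soft ECM and 3 stiff ECM samples. Points are samples and bars are the mean and SD (n = 3). Cd44 is the gene whose soft ECM points lie below every point of both other groups, and the Has3 axis ends near 30.

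Has2 encodes the synthase regarded as the main one of chondrocytes and is needed in mouse embryos for the hyaluronan-rich heart cushions. Its probe read 3244, 3347 and 4441 in normal, 2411, 3599 and 3389 in soft ECM, and 4981, 4693 and 3400 in stiff ECM. Replicates 1 and 2 of stiff ECM were the highest of the 9 samples and soft ECM replicate 1 the lowest, but stiff ECM replicate 3 fell inside the soft ECM range, so the groups overlapped. The group means were 3677 ± 663 in normal, 3133 ± 634 in soft ECM and 4358 ± 842 in stiff ECM (SD, n = 3). The log2 fold change of Has2 was 0.48 ± 0.19 (SE) for stiff against soft, with a 95% interval from 0.06 to 0.90 and an adjusted p of 0.19 by limma. The order was soft, normal, stiff, and neighbours did not separate, since stiff against normal was 0.24 (interval -0.18 to 0.66) and soft against normal -0.24 (interval -0.66 to 0.18). After quantile normalization, which gives all 9 samples 1 distribution, the stiff against soft difference of Has2 was 0.47 with an adjusted p of 0.12 in limma, and after median centring 0.23 with an adjusted p of 0.44. Without soft ECM replicate 1, its lowest sample, it was 0.30. The 200 probes nearest to Has2 in mean intensity had a median of -0.03 in that comparison. The RefSeq table places Has2 on chromosome 15, overlapping Has2os, a transcript of the opposite strand, and the position of the probe was not used here.

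Has1 encodes a second synthase. Its probe read 370, 416 and 529 in normal, 430, 432 and 382 in soft ECM, and 352, 464 and 310 in stiff ECM. The 3 groups overlapped throughout, with the highest sample in normal and the lowest in stiff ECM. The mean of its probe was above 97.2% of the olfactory probes. The log2 fold change of Has1 was -0.16 for stiff against soft (interval -0.55 to 0.22, adjusted p = 0.60 by limma), -0.23 for stiff against normal (interval -0.61 to 0.16) and -0.07 for soft against normal (interval -0.45 to 0.32). The soft against normal value turned to 0.06 after quantile normalization. Has1 lies on chromosome 17, where Spaca6 and Gm36907 overlap it.

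Has3 encodes the third synthase, known from cell lines to make shorter chains. Its probe read 8.27, 9.22 and 7.39 in normal, 5.01, 12.2 and 7.85 in soft ECM, and 4.74, 6.92 and 27.8 in stiff ECM. The single reading above the others was stiff ECM replicate 3. The mean of the probe was above only 34.2% of the olfactory probes, so no fold change is given, and the adjusted p of limma was 0.79, 0.83 and 0.96 in the 3 comparisons. Has3 RNA was not distinguishable from dim signal in any group on this array.

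Hyal1 encodes the lysosomal hyaluronidase whose loss causes a mucopolysaccharidosis in humans. Its readings were 896, 904 and 1373 in normal, 798, 761 and 1032 in soft ECM, and 1147, 1061 and 610 in stiff ECM. Both the highest reading after normal replicate 3 and the lowest of all 9 came from stiff ECM, which had an SD of 289 around a mean of 939. The log2 fold change of Hyal1 was 0.08 for stiff against soft (interval -0.46 to 0.62, adjusted p = 0.86 by limma), -0.19 for stiff against normal (interval -0.74 to 0.35) and -0.28 for soft against normal (interval -0.82 to 0.27). These were the widest intervals of the 6 members above the olfactory level. After quantile normalization the stiff against soft value of Hyal1 was -0.02. Hyal1 overlaps Naa80 and Hyal3 on chromosome 9.

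Hyal2, next to Hyal1 on chromosome 9, encodes the hyaluronidase anchored at the cell surface. Its readings were 4998, 4920 and 5342 in normal, 6435 for soft ECM replicate 1, 4768 and 5323 in the other soft ECM samples, and 5212, 4823 and 4764 in stiff ECM. Apart from soft ECM replicate 1 the samples lay close together, and the SD was 225 in normal and 243.5 in stiff ECM but 849 in soft ECM. The log2 fold change of Hyal2 was -0.15 for stiff against soft (interval -0.40 to 0.10, adjusted p = 0.45 by limma), -0.04 for stiff against normal (interval -0.29 to 0.20) and 0.10 for soft against normal (interval -0.14 to 0.35). Hyal2 was the one member whose soft ECM mean was the highest by both the mean intensity and the mean log2 intensity among those above the olfactory level. Without soft ECM replicate 1 its soft against normal value was -0.01.

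Cd44 encodes the main hyaluronan receptor of chondrocytes, a single-pass protein whose tail binds the actin cytoskeleton through ezrin, radixin and moesin. The study listed Cd44 among genes it picked from these same samples, so the direction of its RNA on the gels is not independent evidence. Separately, the study blotted CD44 protein on both gels at the longer time of its legend. It reports target proteins of the Wnt pathway, with CD44 among those blotted, as higher on stiff ECM. Protein was not measured here. The readings were 1342, 1246 and 1490 in normal, 1149, 1024 and 1151 in soft ECM, and 1534, 1506 and 1252 in stiff ECM. Every soft ECM sample lay below every sample of the other groups, and normal and stiff ECM overlapped. Such a gap between groups, upward on stiff ECM against soft, was seen for 1 of the 7 members and for 31.7% of all probes, and downward on soft ECM against normal for 1 of 7 and 18.3%. No member separated stiff ECM from normal in this way, where 33.9% of all probes did in either direction. The group means of Cd44 were 1359 ± 123, 1108 ± 72.8 and 1431 ± 156 (SD, n = 3). The log2 fold change of Cd44 was 0.37 ± 0.12 (SE) for stiff against soft, a 1.29-fold ratio, with an interval from 0.11 to 0.62, an unadjusted p of 0.0097 and an adjusted p of 0.12 by limma. The 200 probes of nearest intensity had a median of 0.05, and Cd44 lay 0.32 above it. Quantile normalization gave Cd44 a difference of 0.30 (adjusted p = 0.059 by limma), cyclic loess 0.31 (adjusted p = 0.053) and median centring 0.12 (adjusted p = 0.59). Against normal, Cd44 was at 0.07 on stiff ECM (interval -0.19 to 0.33, adjusted p = 0.70) and at -0.29 on soft ECM (interval -0.55 to -0.04, adjusted p = 0.19). After quantile normalization the soft against normal value was -0.12.

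Tnfaip6 encodes TSG-6, a secreted protein induced by inflammatory cytokines that binds hyaluronan through its link module. Its group means ran in the order stiff, soft, normal from low to high, an order it shared with Has1. Its readings were 3039 for normal replicate 1, 4482 and 4819 in the other normal samples, 3719, 3393 and 3106 in soft ECM, and 2795, 3139 and 2786 in stiff ECM. Normal replicates 2 and 3 were the highest, but normal replicate 1 lay between the values of stiff ECM, so these groups overlapped. The means were 4113 ± 945, 3406 ± 307 and 2907 ± 202 (SD, n = 3). The log2 fold change of Tnfaip6 for stiff against normal was -0.48 ± 0.16 (SE), a ratio of 0.719, with an interval from -0.82 to -0.13 and an adjusted p of 0.079 by limma. Its nearest 200 probes had a median of -0.17. Without normal replicate 1 the value was -0.68 with an adjusted p of 0.014. Quantile normalization gave -0.35 with an adjusted p of 0.12. Neighbours in the order did not separate, with -0.23 for stiff against soft (interval -0.58 to 0.12, adjusted p = 0.41) and -0.25 for soft against normal (interval -0.60 to 0.10, adjusted p = 0.42).

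**Figure D2:**
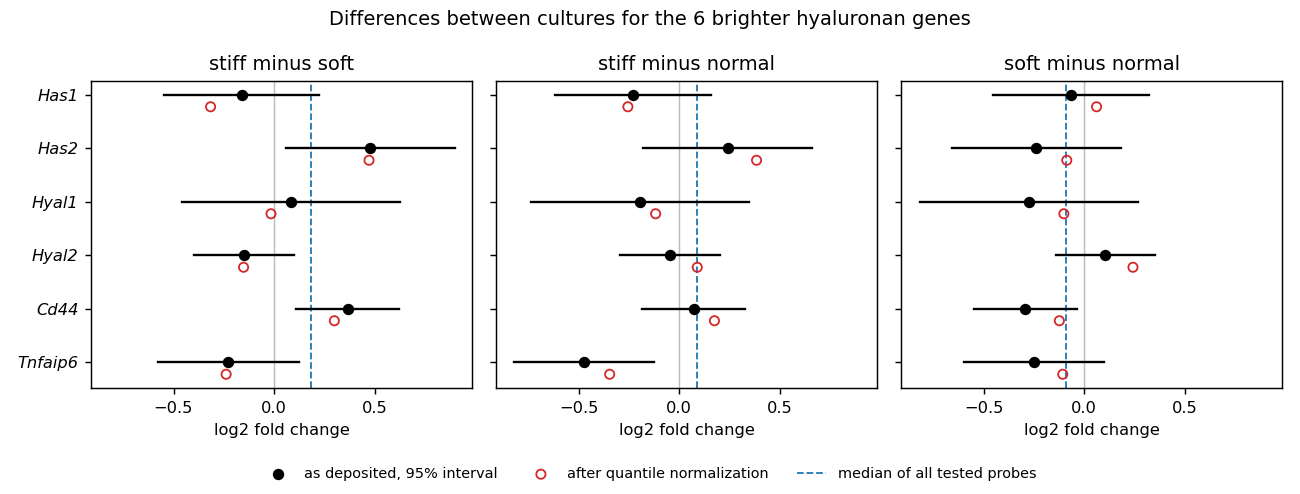
Log2 fold change (x axis) of the 6 hyaluronan genes above the olfactory level in 3 comparisons. Black points with lines are the deposited values with 95% intervals, open red points are quantile-normalized values and the dashed line is the median of all tested probes. The interval excludes 0 for Cd44 and Has2 in stiff against soft, for Tnfaip6 in stiff against normal and for Cd44 in soft against normal, though none passed after adjustment.

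The stretches upstream of Cd44 and Tnfaip6 are shown because these 2 members had the lowest unadjusted p-values, and stiff ECM gave the highest mean of the one and the lowest of the other. Of the 7 genes, 5 had an entry in the RefSeq table of promoter sequences, on build GRCm38.p6, and each stretch is the 250 bases before the annotated start, 5′ to 3′ on the gene's strand. The AP-1 pattern TGANTCA, which reads the same on both strands, was found in 1 of the 5, upstream of Tnfaip6, and its letters are in capitals with the first of them 142 bases before the start. It is in 6.75% of all 32851 such stretches of the table. The TCF/LEF core CTTTGA, searched on both strands and held by 13.8% of them, was in none of the 5. Binding of these factors was not measured here, and a match is a description of letters.
Tnfaip6, chr2:52037863-52038112, plus strand: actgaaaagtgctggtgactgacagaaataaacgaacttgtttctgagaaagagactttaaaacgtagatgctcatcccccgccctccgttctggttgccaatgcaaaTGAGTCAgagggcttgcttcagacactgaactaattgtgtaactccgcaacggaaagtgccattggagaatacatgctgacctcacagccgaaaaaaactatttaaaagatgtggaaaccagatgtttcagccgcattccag
Cd44, chr2:102901666-102901915, minus strand: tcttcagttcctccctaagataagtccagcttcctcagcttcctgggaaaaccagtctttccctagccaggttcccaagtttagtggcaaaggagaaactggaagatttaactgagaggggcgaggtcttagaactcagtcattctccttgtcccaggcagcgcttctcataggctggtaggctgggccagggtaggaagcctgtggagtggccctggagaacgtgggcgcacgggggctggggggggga

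Members varied in different ways over the samples. Among the 6 members above the olfactory level, Pearson's r of the quantile-normalized log2 values over the 9 samples ran from -0.60 (Cd44 with Tnfaip6) to 0.64 (Has1 with Tnfaip6) over 15 pairs. On the deposited log2 values the pair of Cd44 and Tnfaip6 had r = -0.017, the lowest was -0.51 (Has2 with Hyal2) and the highest 0.76 (Has1 with Tnfaip6). On the quantile-normalized values Cd44 and Has2, both with their highest mean on stiff ECM, had r = 0.61. The value was -0.11 once group means were removed. On these values Has2 and Hyal2 had r = -0.59, and -0.95 with group means removed, the farthest from 0 of the pairs on that scale. Group means were not removed from the deposited values, so the -0.95 holds for the quantile-normalized values only. All points share their array and its scaling, so these are descriptions.

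Among 9300 genes above the olfactory level, the pattern most like that of Cd44 belonged to Xpr1 (r = 0.96 over 9 samples), a phosphate exporter, followed by Fam102b and Slc36a1. Has2 was most like Fgfr1op2 (r = 0.98), Mier1 and Nufip2, and Has1 most like Acta1 (r = 0.96), the actin of skeletal muscle, Zfp469 and Tysnd1. Hyal1 was most like Zer1 (r = 0.97), Nudt7 and Ankrd50. Hyal2 was most like 3110082I17Rik (r = 0.99), Smn1 and Ccl25. Tnfaip6 was most like Rabl3 (r = 0.94), Tmem106c and Exoc4. With 9300 genes to choose from and 9 samples, values this high are a ranking only.

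The other genes of hyaluronan metabolism and binding were taken from a list of 50, of which 46 had a tested probe and 28 were above the olfactory level. On stiff against soft ECM, 3 of 46 rose (Itih2, Rdx and Bcan) and 0 fell, beside 1.35% and 0.417% of all probes. Their median log2 fold change was 0.24 against 0.18 for all probes. On stiff ECM against normal, 3 of 46 rose (Rdx, Itih5 and Spam1) and 0 fell, beside 4.8% and 5.14%, with a median of 0.02 against 0.09. On soft ECM against normal, 1 of 46 rose (Spam1) and 3 fell (Vcan, Bcan and Cemip), beside 0.493% and 3.21%, with a median of -0.11 against -0.09. With 1 to 3 calls in a direction, nothing is read from these shares. The split of all calls moved with the scaling. On stiff against soft ECM it was 337 higher and 104 lower, but 469 and 700 after quantile normalization and 206 and 1274 after median centring. On stiff ECM against normal it was 1197 and 1281, but 1725 and 3836 after median centring. On soft ECM against normal it was 123 and 801, but 542 and 538 after quantile normalization and 333 and 331 after median centring.

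**Figure D3:**
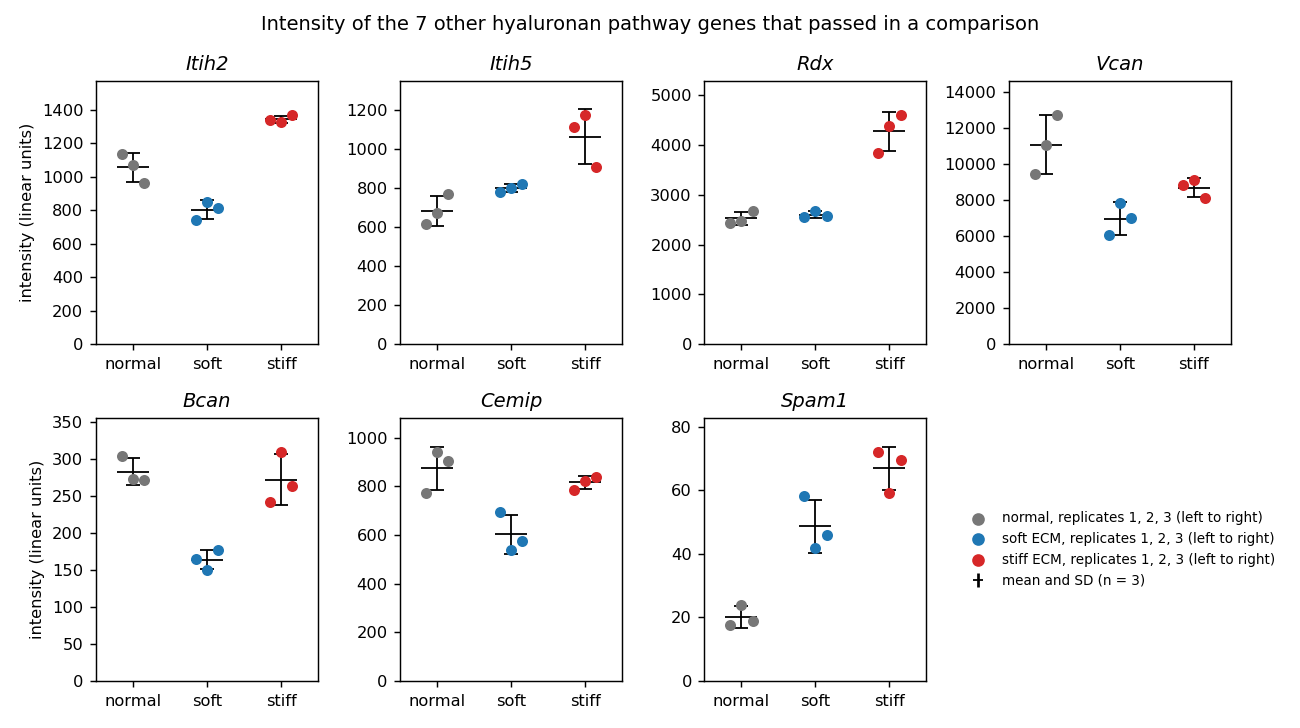
Deposited intensity, in linear units with an axis of its own for each gene, of the 7 other pathway genes that passed in at least 1 comparison, in 3 normal, 3 soft ECM and 3 stiff ECM samples. Points are samples and bars are the mean and SD (n = 3). All stiff ECM points of Itih2 and Rdx lie above those of both other groups, and Spam1 stays under 80 in every sample.

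The enzymes that supply the sugar precursors had 12 of 13 members tested, and by the probe used for each gene 0 passed in any comparison. For Hk1 that probe gave -0.35 for soft against normal (adjusted p = 0.11 by limma). A dimmer second Hk1 probe, with a mean of 2775, gave -0.54 and passed (adjusted p = 0.024 by limma). Ugdh, which makes UDP-glucuronic acid, read 26530 ± 1434 in normal, 21990 ± 2091 in soft ECM and 23760 ± 405 in stiff ECM (mean and SD). Its log2 fold change was -0.27 for soft against normal, with an adjusted p of 0.12 by limma, and every soft and stiff ECM sample lay below the normal ones.

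Among the other enzymes that break hyaluronan, 9 of 10 were tested. Cemip, a protein needed for hyaluronan breakdown by skin fibroblasts, read 774, 940 and 906 in normal, 694, 539 and 574 in soft ECM, and 786, 823 and 838 in stiff ECM. All soft ECM values of Cemip lay below the others, and it fell by 0.54 on the log2 scale on soft ECM against normal (adjusted p = 0.042 by limma). That call held in 7 of 21 alternative settings. The stiff against soft value of Cemip was 0.45 with an adjusted p of 0.088. Its relative Cemip2 read 5776 in normal, 5391 in soft ECM and 5678 in stiff ECM as means, with all 3 adjusted p above the threshold. Spam1, a sperm hyaluronidase, read 17.6, 24.0 and 19.0 in normal, 58.1, 41.7 and 46.1 in soft ECM, and 72.1, 59.3 and 69.5 in stiff ECM. It passed on both gels against normal (adjusted p of 0.017 for soft and 0.0034 for stiff, limma), and the first call was kept in 13 of 20 alternatives. Its probe was brighter than only 59.1% of the olfactory probes, so the size of that rise is not known, and the olfactory median rose on stiff ECM too.

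Of the other receptors, 4 of 5 were tested and 0 passed. Hmmr, a receptor also found on the mitotic spindle, averaged 462 in normal, 378 in soft ECM and 495 in stiff ECM, and its log2 fold change for stiff against soft was 0.47 with an adjusted p of 0.37 by limma. That value rested on soft ECM replicate 1, which read 206 beside 510 and 419, and it was 0.086 without this sample and 0.74 without soft ECM replicate 2. Lyve1, the receptor of lymphatic endothelium, averaged 18.9, 11.0 and 17.9 and was brighter than 41.6% of the olfactory probes, too dim for a fold change.

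The proteoglycans and link proteins that sit on the chain had 8 of 8 genes tested, with 1 higher on stiff against soft ECM, 0 called in stiff against normal and 2 lower on soft ECM against normal. Vcan, the large proteoglycan versican, read 9466, 11072 and 12719 in normal, 6068, 7855 and 7027 in soft ECM, and 8864, 9122 and 8131 in stiff ECM. Its soft ECM samples were the lowest, and Vcan fell by 0.66 on soft ECM against normal (adjusted p = 0.022 by limma), a call kept in 13 of 21 alternatives. The stiff against soft value was 0.32 with an adjusted p of 0.18. A second Vcan probe, with a mean of 111, was below the olfactory level and is not read. Bcan, the brain proteoglycan brevican, read 304, 273 and 272 in normal, 165, 151 and 177 in soft ECM, and 242, 310 and 264 in stiff ECM. It fell on soft ECM against normal (adjusted p = 0.017 by limma) and rose on stiff against soft ECM (adjusted p = 0.036), but its probe was under the olfactory 95th percentile, so no size is given. The first of these calls held in 14 of 21 alternatives and the second in 8 of 21. Acan, which encodes aggrecan and is also one of the chondrocyte markers, read 1598, 694 and 1032 in normal, 497, 431 and 662 in soft ECM, and 889, 644 and 432 in stiff ECM. The normal samples of Acan lay above those of soft ECM, with a log2 fold change of -1.01 and an adjusted p of 0.10 by limma. Hapln1, cartilage link protein, averaged 635 in normal, 453 in soft ECM and 544 in stiff ECM, with -0.53 for soft against normal (adjusted p = 0.15).

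Of the heavy chain genes and other genes listed as hyaluronan partners, 8 of 9 were tested. Itih2, a heavy chain of inter-alpha-inhibitor that is a substrate of TSG-6, read 1134, 1070.5 and 963 in normal, 744, 852 and 815 in soft ECM, and 1338, 1326 and 1366 in stiff ECM. The stiff ECM samples lay above all others and those of soft ECM below, and Itih2 rose by 0.74 ± 0.10 (SE) on stiff against soft ECM (adjusted p = 0.012 by limma), though median centring gave 0.50 with an adjusted p of 0.089. Without stiff ECM replicate 2, 0 of the 46 genes and 0 of all 24942 probes passed in this comparison. Itih5, a related heavy chain, read 615, 669 and 766 in normal, 779.8, 801 and 819.9 in soft ECM, and 1110, 1170 and 905 in stiff ECM. It rose by 0.63 on stiff ECM against normal (adjusted p = 0.016 by limma), a call kept in 17 of 21 alternatives. Ptx3, a pentraxin that cross-links heavy chains on hyaluronan, averaged 43950 in normal, 38620 in soft ECM and 39070 in stiff ECM, and no comparison passed.

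Of the genes listed here as partners of CD44 at the cytoskeleton, 5 of 5 were tested. Rdx, which encodes radixin and which the study also picked from these samples, read 2438, 2468 and 2680 in normal, 2560, 2686 and 2569 in soft ECM, and 3847, 4386 and 4598 in stiff ECM. Normal and soft ECM overlapped and stiff ECM lay above both. Rdx rose by 0.71 ± 0.10 (SE) on stiff against soft ECM (adjusted p = 0.012 by limma) and by 0.76 on stiff ECM against normal (adjusted p = 0.0029). A dimmer second Rdx probe, with a mean of 376, gave -0.02 and -0.09, so the rise was seen by 1 of its 2 probes. Median centring gave the brighter probe 0.46 on stiff against soft ECM with an adjusted p of 0.053. Moesin (Msn), ezrin (Ezr), Nf2 and Ank3 did not pass in any comparison.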

How the data were processed

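The deposited values were intensities on a linear scale for 26423 probes in 9 samples. Per the methods, amplified RNA of each sample was labelled with Cy5 and hybridised to 2 Mouse OneArray v2 arrays (Phalanx). The authors removed flagged spots and controls, scaled arrays by their median in Rosetta Resolver and averaged the pair. A probe's gene came from the platform annotation, which gave 21876 probes 1 symbol and 4547 none. Probes at or below 0 in any sample (1481, 5.6%) were left out, which removed no member. Log2 intensities of 24942 probes were fitted with 1 mean per group in limma 3.58.1 (R 4.3.3; lmFit, eBayes with trend), and the 3 comparisons were tested two-sided with Benjamini-Hochberg adjustment. No pseudocount was added. For a gene with several probes, the one with the highest mean log2 intensity was used. Figures and summaries used Python 3.11.15. The fit was tested on simulated data. The number of arrays limits the precision.

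Named genes were the 7 members, every other pathway gene that passed in a comparison, 10 pathway genes named whatever their values, and for each member above the olfactory level the 3 genes with the highest r. Members and lists were chosen with earlier results of these data known. Comparisons share samples and are not independent. The alternatives were quantile, median and cyclic loess normalization, the brighter 50% of the probes, an added offset of 36.0, sample weights, no trend, a replicate block and 2 groups only. Further ones were the t-test, the mean of a gene's probes, and each sample left out.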

Additional observations from a re-analysis of the deposited data

How the results depend on the processing

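Of 378 log2 fold changes of the 6 brighter members under alternatives, 350 kept their direction and side of the threshold, 10 passed only under the alternative and 18 turned direction. No member passed as deposited. On stiff against soft ECM, median centring gave 1 member (Tnfaip6, -0.47, adjusted p = 0.045 by limma), where it called 5.93% of all probes, and gene-by-gene sample weights 2 (Cd44, 0.42, adjusted p = 0.015; Has2, 0.49, adjusted p = 0.041), where they called 20.7%. Over alternatives the adjusted p ran from 0.0081 to 0.59 for Cd44, 0.031 to 0.44 for Has2 and 0.045 to 0.66 for Tnfaip6. On stiff ECM against normal, median centring gave 1 (Tnfaip6, -0.63, adjusted p = 0.0072; 22.3% of all probes) and sample weights 2 (Has2, 0.40, adjusted p = 0.040; Tnfaip6, -0.56, adjusted p = 0.0020; 34.6%), with ranges from 0.0020 to 0.30 for Tnfaip6 and 0.040 to 0.75 for Has2. On soft ECM against normal, sample weights gave 1 (Tnfaip6, -0.41, adjusted p = 0.026; 15.9%). Leaving out 1 sample gave 0 to 1 members on stiff ECM against normal, the 1 without normal replicate 1, and 0 to 0 otherwise. REML weights, added after seeing the data and stopped before converging, gave 2 members on stiff against soft ECM (26.5% of all probes). Normal replicate 2 had the highest gene-by-gene weight, 3.95, and the lowest by REML, 0.0254. The cause of these changes was not tested.

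Of the other 46 pathway genes, 3 passed on stiff against soft ECM, but 1 after median centring (Hexa, with all 3 calls lost). The t-test gave 1 (0.894% of all probes), sample weights 11 (20.7%) and REML weights 13 (26.5%). With a sample left out the count was 0 (without stiff ECM replicate 2) to 5 (without normal replicate 1, where 9.53% of all probes passed). On stiff ECM against normal 3 passed, but 9 after quantile normalization (16.3%), 8 after median centring, 8 after cyclic loess (15.8%), 17 with sample weights and 0 by the t-test (0.0802%), and 2 to 7 with a sample left out, the 7 without normal replicate 3. On soft ECM against normal 4 passed, but 2 after median centring, 2 without the trend and 2 with the 2 groups only. Sample weights gave 8 (15.9% of all probes), REML weights 0 and the t-test 0. With a sample left out the count was 0 (without normal replicate 2 or soft ECM replicate 3) to 4.

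On stiff against soft ECM, quantile normalization gave Hyal1 -0.016, median centring gave it -0.17, and leaving out 1 sample gave -0.089 (stiff ECM replicate 1) to 0.37, with -0.0029 without soft ECM replicate 2 and -0.033 without stiff ECM replicate 2. Has1 was 0.0037 with sample weights and 0.0011 with REML weights. On stiff ECM against normal, Hyal2 was 0.090 after quantile normalization and 0.099 after loess, Cd44 -0.083 after median centring, and Hyal1 0.083 with sample weights and -0.36 to 0.091 with 1 sample left out (0.0092 without normal replicate 3, 0.091 without stiff ECM replicate 3). On soft ECM against normal, Has1 was 0.061 after quantile normalization, 0.027 after median centring, 0.064 after loess and -0.18 to 0.078 with 1 sample left out (0.078 without normal replicate 3). Hyal2 was -0.013 without soft ECM replicate 1 and up to 0.20 without another sample.

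No source states whether the replicate numbers pair the samples. Samples with the same number in different groups had deviations from their group means that correlated at -0.22 to 0.13. For samples with other numbers the range was -0.23 to 0.19. No shared deviation was seen, but such values cannot decide whether samples were prepared together. With the replicate number as a block, 0 members passed in each comparison, and 2, 3 and 1 of the other pathway genes passed in stiff against soft, stiff against normal and soft against normal. Has3, Spam1, Lyve1 and Bcan were too dim for a size of difference.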
